A study of Mus musculus with 16 samples.

Results

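The effect of IACS-70654 in the presence of anti-PD-1 was read from 2 single-cell RNA libraries of 2208L tumors. Of these, 1 came from mice given anti-PD-1 alone and 1 from mice given IACS-70654 together with anti-PD-1 (combination). The cells compared were those between 200 and 6000 genes, neither limit included, with no more than 10% of their unique molecular identifiers (UMIs) from mitochondrial genes, which left 7117 cells, 2053 from the anti-PD-1 library and 5064 from the combination library, out of 77636 cell barcodes in the 16 libraries of the series. 2208L is a transplantable Trp53-null mammary tumor grown in the mammary fat pad of BALB/c mice, and it is rich in neutrophils. Cells were pooled from 3 mice per library after 7 days of treatment and sorted for viability only, so both libraries share the tumor line, the host strain and the antibody, and differ in the compound. The vehicle and IACS-70654 libraries of the same tumor give the same drug contrast without the antibody in other mice, and their values stand beside the main ones as a description. With 1 library per condition there is no replicate check and no test between conditions. All intervals are exact 95% intervals (Clopper-Pearson for shares, conditional binomial for ratios) and cover counting error only. They do not include the spread between mice or pools. Ratios of UMIs take each UMI as a separate draw, so their intervals also leave out the spread between cells.

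IACS-70654 binds the bromodomain of CBP and P300, a pair of closely related histone acetyltransferases that act as coactivators at enhancers and promoters. PD-1 is an inhibitory receptor of activated T cells, and antibodies against it are given to keep T cells active against tumor antigens, which tumor cells present on MHC class I. Interferons raise the genes of antigen processing and MHC class I through STAT and IRF factors, and neutrophil-rich tumors of this kind are known to respond poorly to PD-1 blockade.

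In percentage points the cell makeup of the tumor differed most in neutrophils and in macrophages and monocytes, and as a ratio of shares in the few B cells. Neutrophils made up 25.7% of the anti-PD-1 library and 5.47% of the combination library, whereas macrophages and monocytes made up 35.9% and 63.4%. B cells went from 45 cells to 2, and T and NK cells from 4.48% to 1.99%. The share of tumor cells was 21.7% and 20.9%, a difference within its counting error. Each cell was put in a class by the marker list of which it showed the largest share of genes, with at least 3 markers seen, and cells with 3 or more markers of another class at 20% or more of the UMIs of the leading class were set apart as mixed.

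Neutrophils numbered 528 of 2053 cells with anti-PD-1 (interval 23.8% to 27.7%) and 277 of 5064 with the combination (4.86% to 6.13%), a share 4.70-fold lower (log2 ratio -2.23, interval -2.45 to -2.02). Without the antibody the 2 shares were 22% and 4.75%, a log2 ratio of -2.21. Both libraries with IACS-70654 were therefore far below both libraries without it, and the pair with the antibody lay close to the pair without. UMIs of the 10 neutrophil markers, summed over all kept cells and needing no class per cell, gave 3516 CPM (UMIs per 1000000 UMIs) with anti-PD-1 and 659 CPM with the combination, a log2 ratio of -2.42.

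Macrophages and monocytes numbered 736 cells with anti-PD-1 (33.8% to 38.0%) and 3212 with the combination (62.1% to 64.8%), a share 1.77-fold higher (log2 ratio 0.82, interval 0.71 to 0.94). The vehicle and IACS-70654 libraries held 44.8% and 71.5%. Shares sum to the whole library, so part of a gain can be the loss of another class: among cells other than neutrophils, macrophages and monocytes made up 48.3% and 67.1%, a log2 ratio of 0.48, and tumor cells 29.2% and 22.1%, a log2 ratio of -0.40. There were 1.65 macrophages or monocytes per tumor cell with anti-PD-1 and 3.04 with the combination, and 1.39 and 11.6 per neutrophil. The 10 macrophage markers, C1qa among them, went from 6375 to 12696 CPM over all cells, whereas the monocyte markers, which include Ly6c2 and Ccr2, went from 742 to 656 CPM. Single markers did not all follow these sums: Cd68 (log2 ratio -0.26) and Ms4a7 (-0.11) of the macrophage list were lower over all cells and the interval of Adgre1 (0.08) included 0, whereas Vcan (0.47), Ms4a4c (0.47) and Gsr (0.42) of the monocyte list were higher.

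Lymphocytes were few in both libraries. T and NK cells numbered 92 (3.63% to 5.47%) and 101 (1.63% to 2.42%), a log2 ratio of -1.17 (-1.59 to -0.74), and 0.207 and 0.0955 per tumor cell. B cells numbered 45 with anti-PD-1 (2.19%) and 2 with the combination (0.0395%), and 30 of 1974 and 1 of 4739 in the pair without antibody. With classes taken from Leiden clusters the numbers of B cells were 48 and 13, so the size of their loss depends on how a cell is called while its direction does not. Fibroblasts numbered 28 and 32 cells, 1.36% and 0.632%. Plasmacytoid dendritic cells (7 and 27 cells), endothelial cells (11 and 34) and other dendritic cells (7 and 6, log2 ratio -1.52) had intervals that included 0. With classes from Leiden clusters there were 29 and 89 dendritic cells (log2 ratio 0.32, -0.30 to 0.97), so neither their number nor a direction was read. In either library 0 mast cells, basophils or erythroid cells were called, which allows shares of up to 0.146% with anti-PD-1 and 0.0592% with the combination at a floor of 3 cells (exact upper limits 0.18% and 0.0728%). Mixed cells made up 5.31% and 5.06%.

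**Figure D1:**
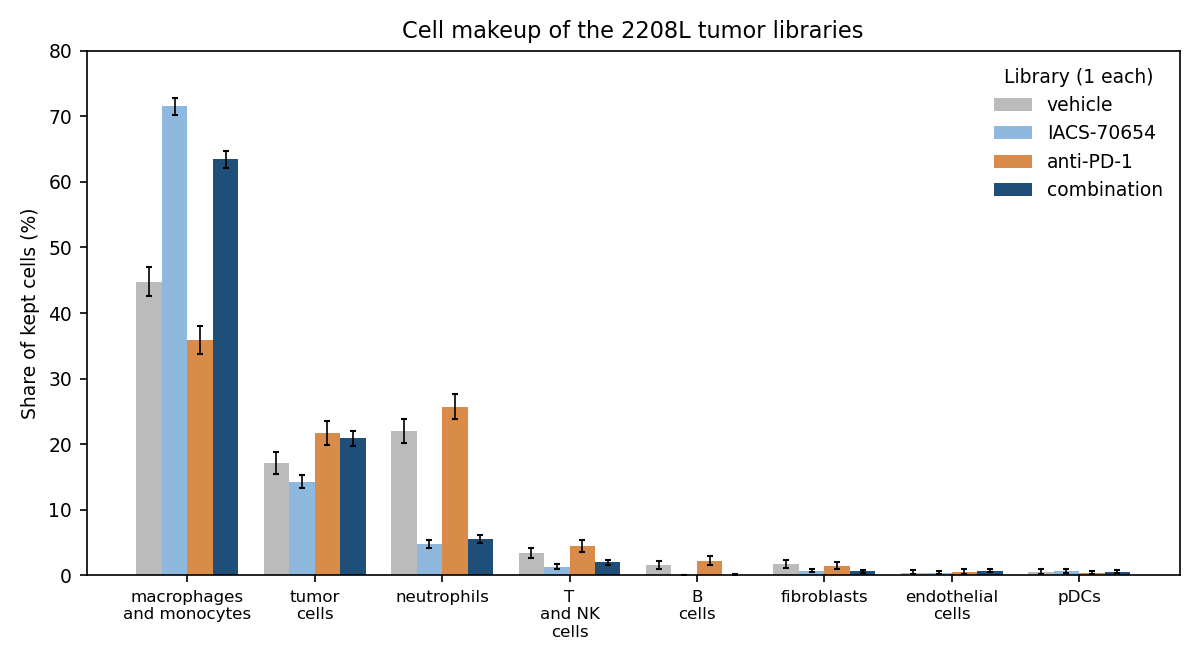
Share of kept cells (%) in each class for the vehicle, IACS-70654, anti-PD-1 and combination libraries of 2208L tumors, 1 library each. Bars start at 0 and error bars are exact 95% binomial intervals. Neutrophils stand at 25.7% with anti-PD-1 and 5.47% with the combination, macrophages and monocytes at 35.9% and 63.4%, and tumor cells at 21.7% and 20.9%.

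The libraries differed in size. The anti-PD-1 library held 2214 barcodes with 16191494 UMIs and the combination library 5343 barcodes with 43594797 UMIs, and kept cells had medians of 4724 and 6308 UMIs. Within a class the depths were closer, with medians of 15920 and 13890.5 UMIs in tumor cells, 5551 and 5853 in macrophages and monocytes, 1328 and 1207 in neutrophils and 2157.5 and 2136 in T and NK cells. No cell barcode was shared between libraries. The study divided barcodes among samples by their CellPlex tags, so barcodes that do not overlap can follow from that step and check nothing. For the tumor data the study adjusted the confidence of this assignment so as to keep more cells. Whether cells were assigned to the wrong library was not tested. In tumor cells neutrophil markers summed to 52.5 and 73.8 CPM and macrophage markers to 166 and 187 CPM. The rule that names the classes uses these same markers and sets mixed cells apart, so low sums do not check the names. How much of the sums left after that removal is free RNA carried in droplets was not tested. C1qa, a macrophage gene, had a UMI in 244 of 445 and in 591 of 1058 tumor cells.

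Tumor cells of the combination had higher levels of interferon response and MHC class I genes than those of the anti-PD-1 tumor. Of 36 type I interferon response genes measured, 31 rose and 0 fell, with a median log2 ratio of 2.06, and of 19 MHC class I and peptide loading genes 13 rose and 0 fell, with a median of 1.84. Of 6 migration and metastasis genes 4 fell, Postn, Mia and Fn1 among them, and of 12 matrix and mesenchymal genes 6. A small group of cells with stratified epithelial keratins, among them Krt14 and Krt6a, was almost absent from the anti-PD-1 library. UMIs were summed over 445 tumor cells with anti-PD-1 (7444498 UMIs) and 1058 with the combination (15760498 UMIs), scaled to CPM, and a gene was called higher or lower at a log2 ratio of CPM of at least 1 in size among genes with 100 or more UMIs in both libraries together. Of 10095 genes so measured, 644 were called (6.38%), 379 higher (3.75%) and 265 lower (2.63%), and the median log2 ratio of all of them was 0.05. Intervals of the ratio lay above 0 for 28.6% of these genes and below 0 for 21.3%. The 2 libraries did not fill the Leiden clusters of tumor cells alike. A cluster led by Wfdc2 and Krt8 held 202 of 500 tumor cells with anti-PD-1 and 760 of 1229 with the combination, and one led by Cpm and Igfbp5 held 222 and 409. The sums thus mix levels within a cell with the kinds of cells summed.

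Among the effectors of the interferon response, Ifit3 (ENSMUSG00000074896), which binds viral RNA together with other IFIT proteins, stood at 2.42 CPM with anti-PD-1 and 94.2 CPM with the combination, a log2 ratio of 5.28 (4.62 to 6.04). Rsad2, the antiviral enzyme viperin, went from 12.9 to 240 CPM (log2 ratio 4.22, 3.93 to 4.53), and Isg15, a ubiquitin-like modifier, from 83.8 to 377 CPM (2.17, 2.05 to 2.29). The smallest difference of the list was that of Ddx58, the RNA sensor RIG-I, from 43.4 to 61.4 CPM, a log2 ratio of 0.5, and all 36 intervals lay above 0. Of the transcription factors of the pathway, Irf7 stood at 51.3 and 228 CPM (2.15), whereas Irf9 was at 13.7 and 23.9 CPM (0.80) and Irf1 at 83.3 and 129 CPM (0.64), both short of the fold used for a call. In the pair without antibody the median of the list was 1.85 over 35 genes. With tumor cells taken from Leiden clusters the log2 ratios were smaller, 4.18 for Ifit3 and 3.47 for Rsad2.

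Of 16 interferon-gamma response genes measured, 13 rose and 0 fell, with a median of 2.19 (1.69 without the antibody). Gbp4, a guanylate-binding GTPase, had 4 UMIs in 3 cells with anti-PD-1 and 1165 UMIs in 126 cells with the combination, a log2 ratio of 7.1 (5.74 to 8.98). The T cell chemokine Cxcl9 went from 1.34 to 58.3 CPM (5.44) and Cxcl10 from 8.87 to 254 CPM (4.84, 4.49 to 5.21). With tumor cells from Leiden clusters the log2 ratios were 5.13 for Gbp4, 4.30 for Cxcl9 and 3.74 for Cxcl10, and that of Cxcl9 was 3.65 when the mean CPM per cell was used, so the direction held and the size depended on which cells were summed. For Cxcl10 the ratio without the antibody was 2.06, and for Cxcl9 it was 5.56. Cd274, which encodes PD-L1, the ligand of the blocked receptor, stood at 6.31 CPM with anti-PD-1 and 30.3 CPM with the combination (2.26, 1.83 to 2.73), against a log2 ratio of 1.19 without the antibody. The gene of the receptor chain Ifngr1 was at 59 and 46.8 CPM (-0.33).

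MHC class I genes rose together with those that load it. H2-D1, a classical class I heavy chain, stood at 667 CPM with anti-PD-1 and 2688 CPM with the combination (2.01, 1.97 to 2.05), H2-K1, the other classical chain, at 276 and 1088 CPM (1.98), and B2m, the shared light chain, at 723 and 2111 CPM (1.55). Nonclassical chains were at 11.1 and 100 CPM for H2-Q7 (3.17) and at 16.4 and 76.6 CPM for H2-T22 (2.23). The peptide transporter genes Tap1 and Tap2 went from 13.3 to 59.3 CPM and from 12.9 to 53.6 CPM, and the immunoproteasome subunit Psmb8 from 194 to 576 CPM. Nlrc5, the transactivator of class I genes, was higher by 2.22 on the log2 scale, from 31 to 305 UMIs. The 6 members short of the fold were Erap1 (0.18), Psme1 (0.65), Tapbpl (0.80), Psmb10 (0.90), Psme2 (0.95) and H2-T23 (0.97). MHC class II genes, which macrophages and B cells use, had 5 members measured in tumor cells and 0 called, with a median of 0.54. Heavy chain genes of class I are near-identical copies in part, so reads between H2-Q6 and H2-Q7 may have been divided.

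The promoters of 5 of these genes are printed because interferon acts through a short DNA element, the interferon-stimulated response element (ISRE), searched here as GAAA, any 2 bases and GAAA again, on either strand (TTTC, any 2 bases and TTTC on the other). Each line gives the RefSeq promoter in GRCm38.p6, from 250 bases before to 50 after the transcription start, read in the direction of the gene, with ISRE matches in capitals.
Ifit3 (chr19:34583279-34583578, plus strand): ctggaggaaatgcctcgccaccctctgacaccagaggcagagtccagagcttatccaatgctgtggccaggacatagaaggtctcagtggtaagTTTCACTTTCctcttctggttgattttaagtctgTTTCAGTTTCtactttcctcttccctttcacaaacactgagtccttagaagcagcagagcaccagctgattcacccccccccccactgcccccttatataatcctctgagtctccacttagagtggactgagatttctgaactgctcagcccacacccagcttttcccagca
Rsad2 (chr12:26456403-26456702, minus strand): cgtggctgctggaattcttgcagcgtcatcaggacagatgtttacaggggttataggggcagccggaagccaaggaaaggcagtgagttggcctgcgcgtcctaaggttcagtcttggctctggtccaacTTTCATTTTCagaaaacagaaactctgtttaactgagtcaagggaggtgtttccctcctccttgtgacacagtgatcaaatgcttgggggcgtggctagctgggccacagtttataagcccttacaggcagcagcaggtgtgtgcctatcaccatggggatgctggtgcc
Cxcl10 (chr5:92348840-92349139, minus strand): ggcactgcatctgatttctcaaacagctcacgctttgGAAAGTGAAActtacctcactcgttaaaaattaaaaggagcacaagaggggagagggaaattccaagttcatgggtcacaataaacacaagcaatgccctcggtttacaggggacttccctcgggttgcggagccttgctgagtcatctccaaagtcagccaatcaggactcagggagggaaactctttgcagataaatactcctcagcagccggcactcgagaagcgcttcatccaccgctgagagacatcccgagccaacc
B2m (chr2:122147437-122147736, plus strand): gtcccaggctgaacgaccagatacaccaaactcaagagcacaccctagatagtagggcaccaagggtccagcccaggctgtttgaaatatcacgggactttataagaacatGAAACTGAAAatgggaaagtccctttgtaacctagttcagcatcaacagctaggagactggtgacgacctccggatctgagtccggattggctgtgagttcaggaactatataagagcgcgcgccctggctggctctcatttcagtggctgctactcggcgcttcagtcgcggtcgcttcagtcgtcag
H2-D1 (chr17:35262844-35263143, plus strand): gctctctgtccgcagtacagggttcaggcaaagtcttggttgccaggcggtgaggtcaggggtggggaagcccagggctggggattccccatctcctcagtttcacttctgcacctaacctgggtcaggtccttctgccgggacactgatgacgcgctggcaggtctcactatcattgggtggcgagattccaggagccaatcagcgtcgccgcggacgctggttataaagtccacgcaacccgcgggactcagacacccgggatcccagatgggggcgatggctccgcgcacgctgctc

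Ifit3 held 2 matches, 156 and 122 bases before the start, Rsad2 had 1 at 120 bases, Cxcl10 1 at 213 bases and B2m 1 at 139 bases. H2-D1 held no exact match in its window. Only these exact letters were searched, so a window without a match can still hold a variant form of the element. Of all 27025 RefSeq promoters 3.99% held an ISRE match, and of the genes measured in tumor cells 306 of 8038 with a window (3.81%). Of the genes called higher it was 46 of 275 with a window (16.7%), and of those called lower 7 of 199 (3.52%). In the lists it was 15 of 29 for the type I interferon response (51.7%), 9 of 14 for the interferon-gamma response (64.3%) and 5 of 16 for MHC class I (31.2%). Higher genes outside these 3 lists held it in 23 of 229 windows (10.0%). The GAS element, TTCNNNGAA, which STAT dimers bind and which reads the same on both strands in this form, was in 9.55% of all promoters, 8.24% of the genes measured in tumor cells, 10.5% of higher genes and 10.6% of lower genes. In the lists it was in 7 of 29 windows for the type I interferon response (24.1%), 5 of 14 for the interferon-gamma response (35.7%) and 1 of 16 for MHC class I (6.25%). The windows of Psmb9 and Tap1, which are divergent neighbors, share 275 of 300 bases. A match is only a match of letters, and the shares count exact matches only.

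The MHC class I gain was spread over the tumor cells. After each cell was thinned at random to 2000 UMIs, which left out 3 and 9 shallower tumor cells, the median cell held 3 UMIs of MHC class I and loading genes with anti-PD-1 (quartiles 2 and 6) and 14 with the combination (8 and 21). A UMI of H2-D1 was found in 258 of 442 thinned cells (58.4%) and in 970 of 1049 (92.5%), and one of H2-K1 in 35.3% and 75.1%. No class lacks H2-D1, so no background class can be set beside these shares. The C1qa counts above are those of tumor cells before thinning. They were taken at a greater depth and cannot be set against these shares. The 10% of cells with the most class I UMIs held 34.5% of them with anti-PD-1 and 26.8% with the combination. Type I interferon response UMIs had medians of 3 (1 and 6) and 7 (4 and 13), and the top 10% of cells held 37.1% and 38.9%. Cells with at least 3 of Ifit2, Ifit3, Isg15 and Rsad2 numbered 0 of 442 with anti-PD-1, which allows up to 0.679% at a floor of 3 cells (exact upper limit 0.831%), and 57 of 1049 with the combination (5.43%, 4.14% to 6.98%). Without thinning they numbered 4 of 445 and 137 of 1058.

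**Figure D2:**
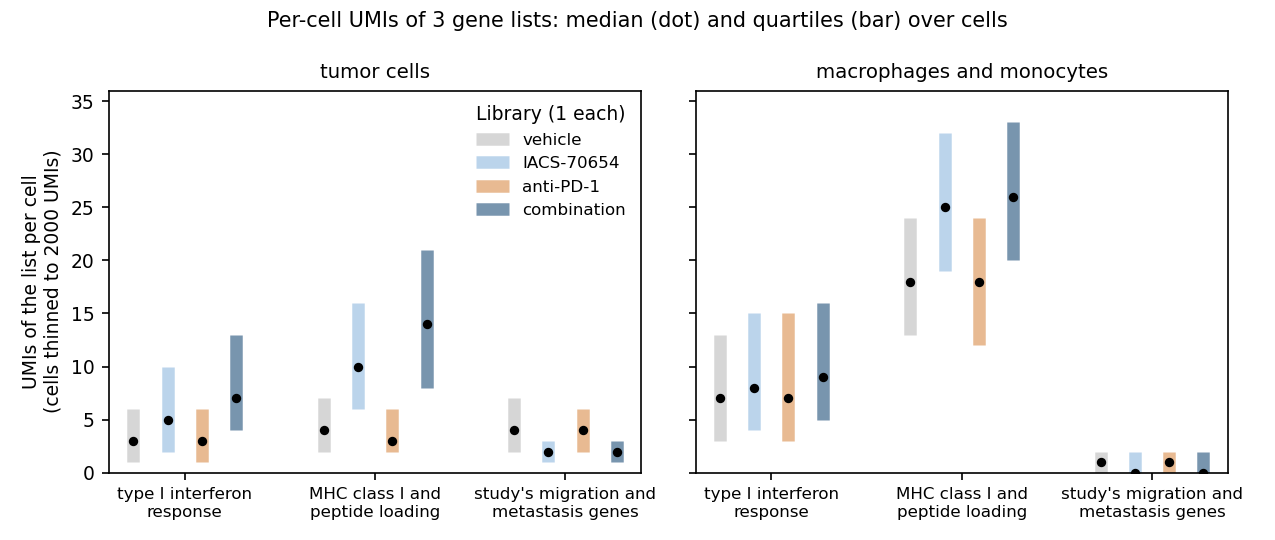
UMIs of 3 gene lists per cell after thinning to 2000 UMIs, with the median as a dot and the quartiles as a bar, for tumor cells on the left and macrophages and monocytes on the right, in 4 libraries. In tumor cells the median of MHC class I and peptide loading genes stands at 3 with anti-PD-1 and 14 with the combination, and that of the study's migration and metastasis genes at 4 and 2.

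Interferon genes themselves were nearly absent from the tumor cells. Ifnb1, which encodes interferon beta, had 0 UMIs in tumor cells with anti-PD-1 and 81 with the combination, all 81 in 1 cell. Ifng had 0 and 4 UMIs in tumor cells, and 17 and 23 UMIs in T and NK cells, in 11 cells of either library. The transcripts of these cytokines are therefore too few to compare at this depth.

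Growth factor and chemokine genes of tumor cells changed in both directions. Of 10 neutrophil chemoattractant and growth factor genes measured, 5 rose and 2 fell (median 1.05, and 0.33 without the antibody). Csf3, which encodes the neutrophil growth factor G-CSF, stood at 3.09 and 36.7 CPM (3.57, 2.97 to 4.24), in 9 and 103 cells. With tumor cells from Leiden clusters its log2 ratio was 2.77. Cxcl5, a ligand of the neutrophil receptor CXCR2, was at 1.21 and 22.7 CPM (4.23), and the macrophage growth factor Csf1 at 10.5 and 30.3 CPM (1.53). These 3 genes of myeloid growth and attraction were thus higher in the library with fewer neutrophils, and their ratios without the antibody were 3.17, 5.13 and 1.28. Tnf fell from 21.2 to 10.6 CPM (-1.0) and Ccl3 from 7.93 to 3.87 CPM (-1.03). Of monocyte and lymphocyte chemokines, Cxcl12, a retention signal for leukocytes, fell from 18 to 4.44 CPM (-2.02, -2.46 to -1.59).

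Ccl5 and Il1b were higher with the antibody and not without it. Ccl5, which draws T cells, went from 10.9 to 44 CPM with the antibody (2.01, 1.68 to 2.37), and its log2 ratio without the antibody was -0.57. Il1b, an inflammatory cytokine of myeloid cells, went from 18.1 to 51.4 CPM (1.5), and its ratio without the antibody was -0.15. Lif, a cytokine of the IL-6 family, went from 7.93 to 20.6 CPM (1.38), and had a ratio of the same sign without the antibody (0.33). Markers of other classes moved in the same cells: NK cell markers summed to 0.537 CPM with anti-PD-1 (3 of 8 markers seen) and 3.87 CPM with the combination (7 of 8), T cell markers to 5.51 and 8.38 CPM (8 and 10 of 10 seen), monocyte markers to 62.5 and 118 CPM (8 of 8 in both), and neutrophil markers to 52.5 and 73.8 CPM (9 and 10 of 10). Without the antibody, from vehicle to IACS-70654, the sums were 0.739 and 3.17 CPM for NK cell markers, 5.91 and 4.26 CPM for T cell markers, 68.1 and 109 CPM for monocyte markers and 77 and 67.3 CPM for neutrophil markers. The T cell and neutrophil sums thus had the same pattern over the 4 libraries as Ccl5 and Il1b, and Il1b stood at 24474 CPM in neutrophils of the anti-PD-1 library. Their part in Ccl5 and Il1b was not tested.

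The genes the study had picked out for migration and metastasis on the vehicle and IACS-70654 tumors were lower here as well. Of 6, 4 fell and all 6 intervals lay below 0, with a median of -1.29 (-1.37 without the antibody). Postn, the matrix protein periostin, went from 206 to 48.4 CPM (-2.09, -2.22 to -1.96), the secreted protein gene Mia from 231 to 61 CPM (-1.92), Fn1, fibronectin, from 327 to 127 CPM (-1.36) and the protease inhibitor Serpine2 from 749 to 322 CPM (-1.22). Fgfr1, a growth factor receptor, was at 227 and 124 CPM (-0.87), and Hspb1, a small heat shock protein, at 404 and 320 CPM (-0.34). The list comes from other libraries than the 2 compared here, but was known to hold genes that fall with the drug. The median thinned cell held 4 UMIs of these genes with anti-PD-1 and 2 with the combination. Of 12 matrix and mesenchymal genes measured, some of them shared with the former list, 6 fell and 0 rose (median -0.98). They included Ccn2 (233 to 100 CPM) and Sparc (22.3 to 9.77 CPM), whereas Vim, the mesenchymal intermediate filament, was at 92.1 and 157 CPM (0.77) and Twist1, a mesenchymal transcription factor, at 86.8 and 126 CPM (0.54). In tumor cells endothelial markers summed to 48.6 and 26.7 CPM, and to 53.9 and 33.5 CPM without the antibody. Fibroblast markers summed to 6.45 and 7.3 CPM with it. The part of such RNA in the matrix genes was not tested.

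The largest falls among genes with 300 or more UMIs were those of Igfbp2, Sparcl1, Fgg, Tesc, Lmcd1 and Krt15. Igfbp2, which binds insulin-like growth factors, had 899 UMIs in 169 of 445 tumor cells with anti-PD-1 and 49 UMIs in 33 of 1058 with the combination, 121 and 3.11 CPM (-5.28, -5.73 to -4.86). In macrophages and monocytes, which were taken as background, it had a UMI in 0.679% and 0.187% of cells, at medians of 5551 and 5853 UMIs. Sparcl1, a matrix glycoprotein, went from 59 to 2.03 CPM (-4.86), Fgg, the gamma chain of fibrinogen, from 116 to 7.3 CPM (-3.99), Tesc from 132 to 11.4 CPM (-3.53) and Lmcd1 from 110 to 9.58 CPM (-3.52). Tesc, Igfbp2 and Fgg were also among the leading genes of a Leiden cluster of tumor cells that held 76 of 500 tumor cells with anti-PD-1 and 10 of 1229 with the combination. The cluster was built on these same genes, so its size is no separate result, and fewer such cells and less RNA per cell cannot be told apart. Over the Leiden tumor cells as a whole the ratio of Igfbp2 was -4.29 and that of Fgg -3.31. Spp1, which encodes the secreted protein osteopontin, was at 20616 and 11252 CPM (-0.87). Cd200, an inhibitory ligand for myeloid cells that the study names, was at 328 and 168 CPM (-0.97), and Cebpb at 1787 and 1455 CPM (-0.30).

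**Figure D3:**
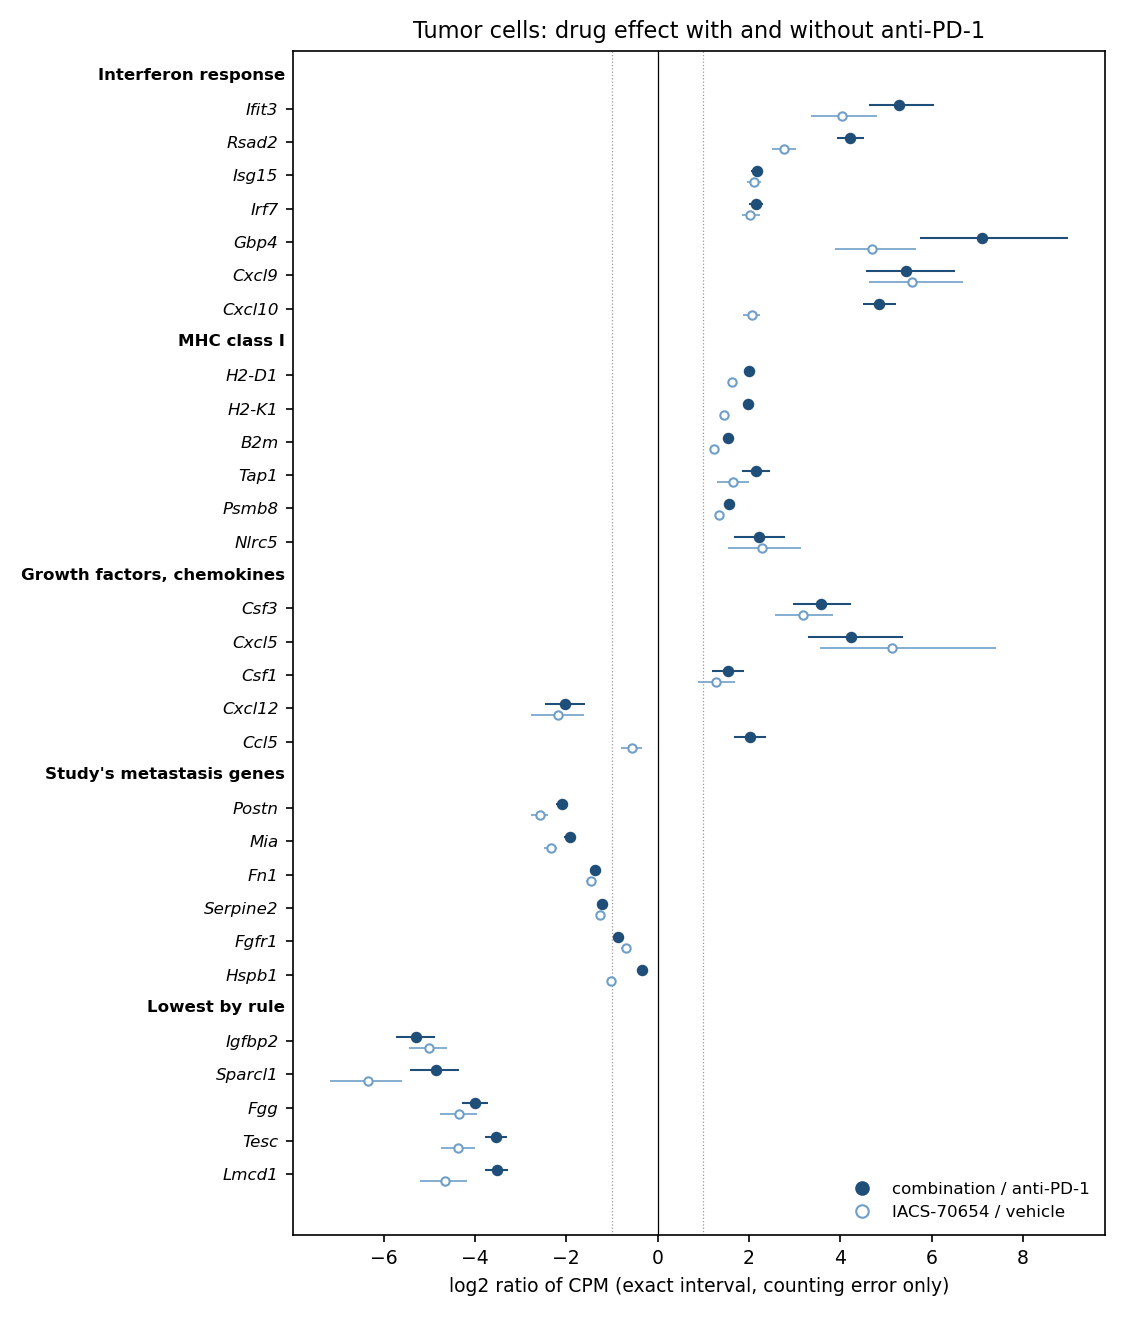
Log2 ratio of CPM in tumor cells for 29 named genes in 5 groups, with exact 95% intervals for counting error. Filled points give combination over anti-PD-1 and open points IACS-70654 over vehicle, 1 library each, and dotted lines mark a log2 ratio of 1 in either direction. Ifit3 stands at 5.28 and Igfbp2 at -5.28, and the points of Ccl5 lie on opposite sides of 0, at 2.01 and -0.57.

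Keratins were among the highest genes of the list. Of those of stratified epithelium, Krt6b had 0 UMIs with anti-PD-1 and 686 with the combination, at least 108-fold higher when the empty library is set at a floor of 3 UMIs, Krt6a had 2 and 2875 UMIs (9.41) and Krt16 9 and 1558 (6.35). Krt19, a keratin of simple epithelium, had 2 and 405 UMIs (6.58). Of 10 keratins measured 6 rose and 1 fell, with a median of 4.2. Krt6b, Krt6a, Krt16 and Krt19 reached the minimum of UMIs in both libraries together only through the combination, which held more tumor cell UMIs. The count and the median thus favor keratins that were high there and are no measure of keratins as a group. The UMIs of Krt6b, Krt6a, Krt16 and Krt19 sat in few cells, as did most of those of Krt14. Krt14, the basal keratin, had 126 UMIs with anti-PD-1 and 9281 with the combination, and 9040 of the latter were in 59 of 1058 cells with 10 or more each, against 81 UMIs in 3 cells with anti-PD-1. Without these cells the median of the keratins was 1.39. The Krt19 UMIs sat elsewhere, in 2 and 12 of the other tumor cells and in 0 of the 59. The pair without antibody differed the same way for Krt14 (5.96). Luminal keratins were at 2439 and 3061 CPM for Krt18 (0.33) and at 1251 and 2144 CPM for Krt8 (0.78), and Krt15 fell from 88.5 to 9.39 CPM (-3.24). Krt5, Krt7, Krt8, Krt14, Krt17, Krt18 and Krt19 are on the marker list by which tumor cells were called. Their values are thus in part those of the rule. Krt5 had 0 UMIs over all kept cells of either library. A Leiden cluster led by Krt14, Krt6a, Krt16 and Krt6b, with Dmkn, Sprr1a and Cnfn, held 0 cells with anti-PD-1 and 50 with the combination. It was built on these same genes. Normal epithelium, of the mammary gland or another tissue, cannot be told apart from tumor epithelium in these cells.

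In the combination library the cells rich in Krt14 had lower sums of interferon response and MHC class I genes than the other tumor cells. In the 59 cells with 10 or more Krt14 UMIs of the combination, type I interferon response genes summed to 3710 CPM and MHC class I and loading genes to 6170 CPM. In the other 999 tumor cells of that library the sums were 5668 and 8076 CPM, and in the 442 such cells of the anti-PD-1 library 2175 and 2483 CPM. The 3 Krt14-rich cells of the anti-PD-1 library had 1498 and 5635 CPM, so there the class I sum was the higher one, in too few cells to compare.

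In other programs of the tumor cells the genes past the fold stand beside 3.75% higher and 2.63% lower of all genes measured. Of 23 G2/M genes 2 rose, Top2a (13 to 33.0 CPM, 1.34) and Kif11 (2.55 to 6.34 CPM, 1.31), with a median of 0.48, and of 22 S phase genes 0 were called, with a median of 0.48. Intervals lay above 0 for 12 G2/M and 17 S phase genes and below 0 for 0 and 2, against 28.6% above 0 over all genes, so most S phase genes were slightly higher without reaching the fold. Cells with at least 2 of Mki67, Top2a, Cdk1, Ccnb1, Birc5 and Ube2c made up 1.81% (8 of 442) and 4.00% (42 of 1049) after thinning and 11.5% and 10.5% without it, so the order of the shares turned with the depth and no change in cycling was read. Cdkn1a, the cell cycle inhibitor p21, went from 12.2 to 51.5 CPM (2.07). Of 21 hypoxia and glycolysis genes 2 fell, Egln3 (34.1 to 7.87 CPM) and Bnip3 (72.7 to 35.2 CPM). Of their intervals 18 lay below 0 (median -0.34), against 21.3% below 0 over all genes. Of 15 chromatin regulators 0 were called (median -0.03). The drug's target genes were at 145 and 142 CPM for Crebbp, which encodes CBP, and at 51.3 and 62.8 CPM for Ep300 (0.29, 0.12 to 0.46). Malat1, a nuclear noncoding RNA, was at 8291 and 16368 CPM (0.98).

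Over all genes, tumor cells moved alike with and without the antibody. Of 501 called genes measured in both pairs, 496 (99.0%) had the same sign without the antibody, and 341 (68.1%) were also past the fold there. Over all 9157 genes measured in both pairs the same sign was found for 76.0%, and Pearson's r across 9152 genes was 0.85. Genes are not independent replicates, and the 4 libraries share the tumor line and the assay but no library stands in both ratios.

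Macrophages and monocytes showed another pattern. MHC class II genes were lower, class I and most type I interferon response genes were slightly higher but, apart from Oas2, short of the fold, and Folr2, most G2/M genes and 4 of 8 monocyte markers were lower. Ccl24, Areg and Lpl were higher. Sums were over 736 and 3212 cells with 4441653 and 20579328 UMIs, and of 9529 genes measured 318 were called (3.34%), 96 higher (1.01%) and 222 lower (2.33%), with a median of -0.01. Intervals lay above 0 for 15.3% and below 0 for 20% of these genes. In a Leiden clustering the 2 libraries did not fill this class alike. The cluster led by Selenop, Apoe and Ccl8 held 30 of 718 macrophages and monocytes with anti-PD-1 and 702 of 3083 with the combination, and one with Folr2 and Fcrls among its leading genes 83 and 194. These clusters were built on the same genes, so the values that follow mix levels within a cell with the kinds of cells summed, and these cannot be told apart.

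All 8 MHC class II genes measured had intervals below 0, and 2 fell past the fold (median -0.93, and -1.16 without the antibody). H2-Eb1 stood at 2634 CPM with anti-PD-1 and 1140 CPM with the combination (-1.21, -1.24 to -1.18), H2-Ab1 at 3081 and 1378 CPM (-1.16) and H2-Aa at 3593 and 1834 CPM (-0.97), the chains that bind peptide. Ciita, the class II transactivator, was at 41.9 and 21.1 CPM (-0.99, -1.24 to -0.73), and Cd74, the invariant chain, at 10998 and 7192 CPM (-0.61). After thinning the median cell held 39 class II UMIs with anti-PD-1 (quartiles 7 and 77.25) and 14 with the combination (4 and 36). Class I went the other way without reaching the fold: 16 of 19 intervals lay above 0 and 0 genes were called (median 0.45), with H2-D1 at 3321 and 5730 CPM (0.79) and H2-K1 at 1368 and 2403 CPM (0.81).

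Of 36 type I interferon response genes 1 rose past the fold, Oas2, an enzyme of RNA sensing, from 13.7 to 30 CPM (1.13), and the median was 0.33 (0.51 without the antibody), against 2.06 in tumor cells of the same libraries. Intervals lay above 0 for 26 of the 36 and below 0 for 7. Irf7 was at 296 and 428 CPM (0.53). After thinning, the median cell held 7 UMIs of the list with anti-PD-1 and 9 with the combination. The top 10% of cells held 41.3% and 30.9% of these UMIs. Summed over the class, several effectors were lower with the antibody and higher without it. Rsad2 stood at 196 and 110 CPM (-0.83, -0.94 to -0.72) and had a ratio of 0.82 without the antibody, Cmpk2 had -0.71 and 0.57, and Ifit1 was at 60.6 and 48.4 CPM (-0.32) against 0.90. Cells with at least 3 of Ifit2, Ifit3, Isg15 and Rsad2 made up 49 of 700 (7.00%, 5.22% to 9.15%) and 217 of 3097 (7.01%, 6.13% to 7.96%) after thinning, which left out 36 and 115 cells. In the pair without antibody they made up 29 of 848 (3.42%) and 216 of 3275 (6.60%). Without thinning the shares were 12.1% and 16.6% with the antibody and 9.16% and 16.2% in the other pair. The Leiden cluster led by Cxcl10 and Ifit3, formed without thinning, held 48 of 718 and 320 of 3083 cells of the class. T and NK cells met the rule in 3 of 52 and 0 of 56 thinned cells.

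Cell division genes of macrophages and monocytes were lower. Of 26 G2/M genes 17 fell and 25 intervals lay below 0, with a median of -1.14 (-0.70 without the antibody). Mki67, a marker of cycling cells, went from 65.1 to 27.7 CPM (-1.23, -1.44 to -1.02) and Top2a, a topoisomerase of mitosis, from 79.5 to 36.7 CPM (-1.12). Of 23 S phase genes 2 fell (median -0.69). Cycling cells by the rule above made up 47 of 700 (6.71%, 4.97% to 8.83%) and 71 of 3097 (2.29%, 1.79% to 2.88%), and 10.1% and 4.11% without thinning, so here both depths gave the same order.

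Of the 8 monocyte markers measured within this class 4 fell and 0 rose, with 6 intervals below 0 and 1 above (median -0.98), and of the 10 macrophage markers 0 were called, with 4 intervals below 0 and 6 above (median 0.19). Ly6c2, the antigen of inflammatory monocytes, stood at 137 and 21.7 CPM (-2.65, -2.83 to -2.47), and Ccr2, the receptor that brings monocytes into tissue, was at 365 and 162 CPM (-1.17), with a UMI in 43.6% and 20.5% of thinned cells. Chil3 (-2.81) and F13a1 (-1.29) were the other monocyte markers past the fold, whereas Plac8 (-0.78), Ms4a4c (-0.22), Gsr (-0.09, interval including 0) and Vcan (0.96) were short of it. Folr2, a folate receptor of a tissue macrophage type, was at 101 and 12.2 CPM (-3.05, -3.28 to -2.83), in 11.9% and 1.55% of thinned cells, and Fcrls was at 358 and 59.3 CPM (-2.59). Ly6c1 (-2.68), Ly6a (-2.56) and Cd93 (-2.34) completed the 6 lowest genes with 300 or more UMIs. Endothelial markers, 8 in all with 7 and 8 seen, summed to 31.7 and 11.6 CPM in these cells, and their part in Ly6c1, Ly6a and Cd93, which endothelium also expresses, was not tested. Ly6c2 and Ccr2 are on the monocyte marker list. Monocytes and macrophages were 1 class, so fewer monocytes in it and less of a gene per cell cannot be told apart.

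Among the highest were Areg, an EGF receptor ligand, at 4.95 and 71.5 CPM (3.85, 3.25 to 4.53), Ccl24, an eosinophil chemokine, at 36.9 and 225 CPM (2.61) and Ccl17, a ligand of CCR4, at 2.93 and 17.4 CPM (2.58). The Ccl17 value rests on 13 UMIs in 4 cells with anti-PD-1, 69.2% of them in 1 cell, and on 359 UMIs in 64 cells with the combination, and its ratio was 1.89 by the mean CPM per cell. Ccl17 also led the Leiden cluster of dendritic cells, 29 and 89 cells against 7 and 6 by the marker rule, and with that cluster kept apart its ratio in macrophages and monocytes was 2.45. Lpl, lipoprotein lipase, went from 28.6 to 110 CPM (1.94), Chn2 from 5.4 to 17.5 CPM (1.70) and C6, a complement component, from 16 to 50.9 CPM (1.67). Apoe, which carries lipid, was at 32021 and 56340 CPM (0.82). Retnla, a marker of alternative activation, had 0 UMIs with anti-PD-1 and 246 with the combination, but 4 cells held them and 1 cell held 91.5%, and its log2 ratio without the antibody was -3.64. Of 13 monocyte and lymphocyte chemokines 3 rose (median 0.51, and 0.13 without the antibody): Ccl24, Ccl17 and Ccl7, a ligand of CCR2, from 254 to 525 CPM (1.04, 0.96 to 1.13). Ccl2, the main ligand of CCR2, was at 345 and 675 CPM (0.97) and Ccl8 at 948 and 1535 CPM (0.70). Without the antibody Ccl7 and Ccl8 had ratios of -0.18 and -0.45. Cxcl10 was at 263 and 203 CPM (-0.37), against 0.59 without the antibody.

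Of 16 genes associated with myeloid-derived suppressor cells (MDSCs) 3 fell and 0 rose in macrophages and monocytes (median -0.14): Ifitm1 (108 to 27.2 CPM) and the C-type lectins Clec4d (55.8 to 14.4 CPM) and Clec4e (36 to 16.6 CPM). Arg1, which depletes arginine, was at 154 and 102 CPM (-0.59) and Cd84, a marker the study uses for MDSCs, at 121 and 84.6 CPM (-0.52). Neutrophil markers in these cells summed to 252 and 175 CPM with 10 of 10 seen in both, and their part in the values of Ifitm1, Clec4d and Clec4e was not tested. Cd274 was at 51.6 and 73.3 CPM (0.51). Of 21 hypoxia and glycolysis genes 3 fell, Egln3, Ero1l and Bnip3, and the median was -0.49.

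**Figure D4:**
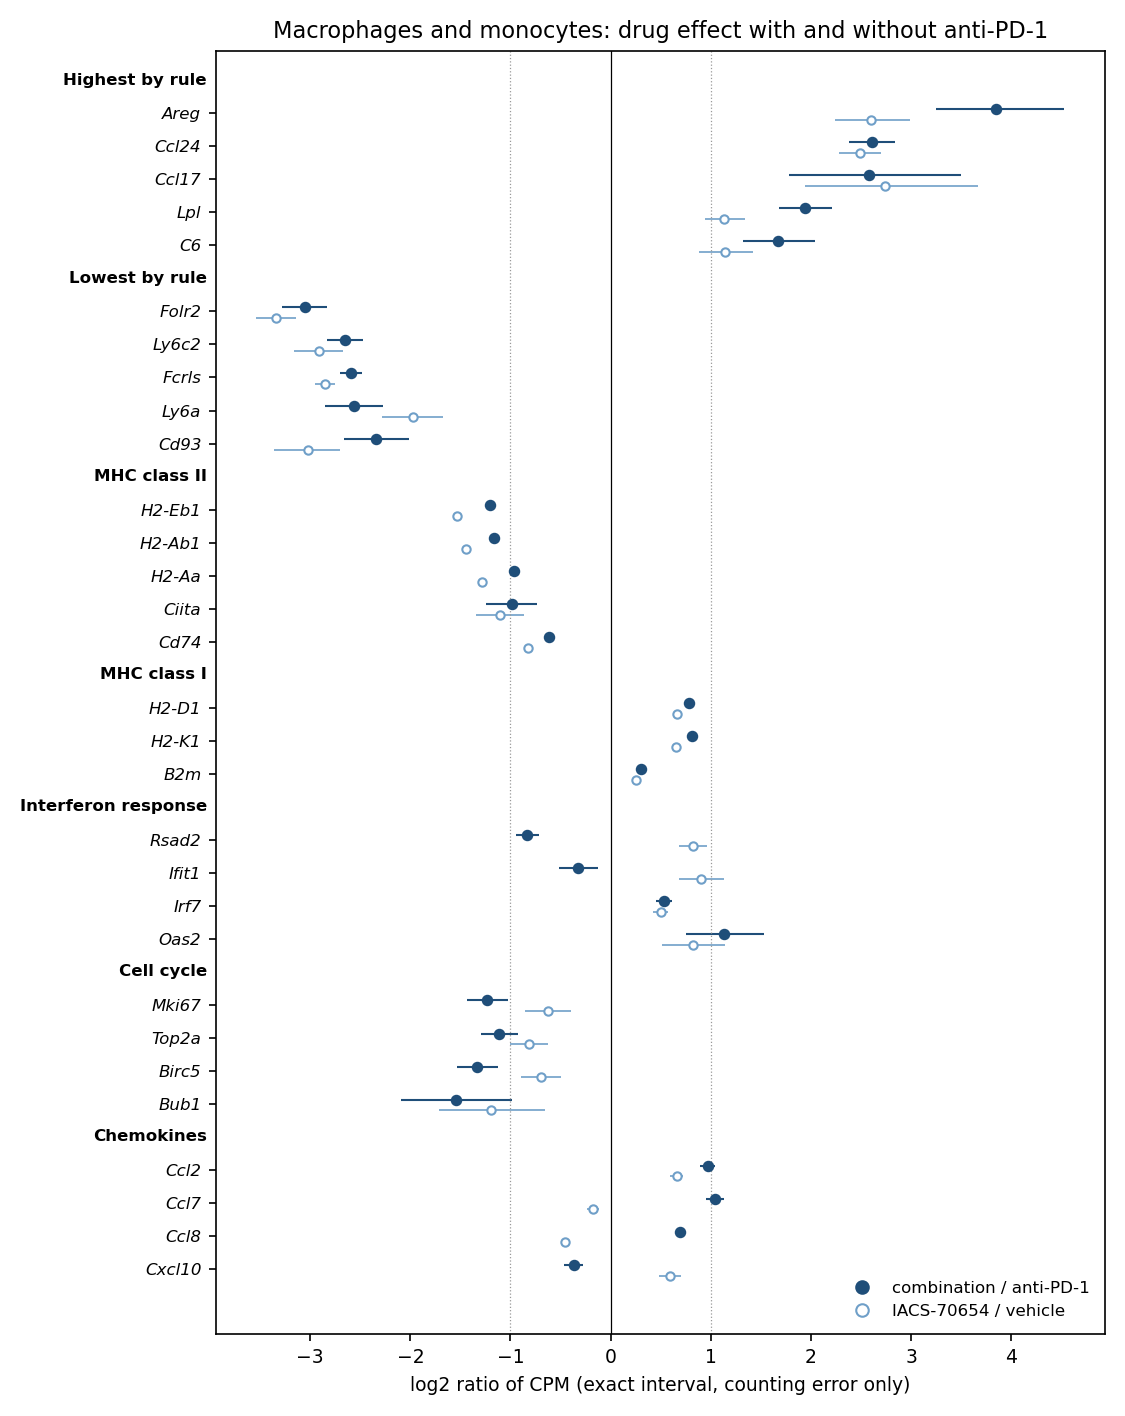
Log2 ratio of CPM in macrophages and monocytes for 30 named genes in 7 groups, with exact 95% intervals for counting error. Filled points give combination over anti-PD-1 and open points IACS-70654 over vehicle, 1 library each. Class II genes lie left of 0 in both pairs (H2-Eb1 at -1.21 with the antibody), whereas the points of Rsad2 stand at -0.83 and 0.82, on opposite sides of 0.

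In the neutrophils that were left, hypoxia and glycolysis genes were mostly lower. Sums held 796146 UMIs over 528 cells and 371791 UMIs over 277 cells, and of 1977 genes measured 81 were called (4.1%), 23 higher (1.16%) and 58 lower (2.93%), with a median of 0.06. Intervals lay above 0 for 19.7% and below 0 for 15.1% of these genes. Scaling by the TMM method lowered each neutrophil ratio by 0.15 and changed the numbers to 15 higher and 93 lower. Of 17 hypoxia and glycolysis genes measured 5 fell and 1 rose (median -0.78, and -0.62 without the antibody), and 14 intervals lay below 0. Bnip3, a mitophagy receptor induced by low oxygen, stood at 232 and 96.8 CPM (-1.26, -1.82 to -0.74), the glycolytic enzyme Pgk1 at 418 and 194 CPM (-1.11), Ero1l at 279 and 126 CPM (-1.14), P4ha1 at 227 and 105 CPM (-1.12) and Egln3 at 131 and 64.6 CPM (-1.02). Vegfa, the vascular growth factor, went from 95.5 to 191 CPM (1.0, 0.51 to 1.49), at the fold itself and short of it under TMM. Slc2a1, the glucose transporter, was at 225 and 202 CPM (-0.16).

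Of 15 MDSC-associated genes 0 were called in neutrophils (median -0.07), with 3 intervals above 0 and 6 below. Clec4e was at 1159 and 619 CPM (-0.91), the cathepsin gene Ctsd at 857 and 503 CPM (-0.77), Clec4d at 1530 and 936 CPM (-0.71) and Cd84 at 219 and 143 CPM (-0.62, -1.09 to -0.17). Il1b, an inflammatory cytokine, was at 24474 and 25781 CPM (0.08, and -0.08 under TMM). Of a published MDSC signature 88 genes were measured, of which 4 fell and 0 rose (median -0.17), and 35 intervals lay below 0 and 17 above. Of all genes of the class 2.93% fell and 1.16% rose, and intervals lay below 0 for 15.1% and above 0 for 19.7%. Of 13 trafficking genes 1 fell, the leukotriene receptor Ltb4r1 (167 to 72.6 CPM, -1.20), and the median was 0.01. Csf3r, the G-CSF receptor, was at 1020 and 732 CPM (-0.48, -0.68 to -0.28) and Cxcr2 at 568 and 573 CPM (0.01, and below 0 under TMM), whereas Mmp9, a gelatinase of granules, was at 448 and 855 CPM (0.93).

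Granule genes of young neutrophils were carried by few cells, and their values depended on which cells were called neutrophils. By the marker rule Ngp had 519 UMIs with anti-PD-1 and 1 with the combination, of which 410 were in 1 cell, and Camp had 228 and 0 UMIs, with 188 in 1 cell, a level at least 35.5-fold lower at a floor of 3 UMIs. Of 8 granule genes measured 3 fell, Ngp, Camp and Ltf, and the median was -0.59. That median turned to 0.79 without neutrophils of 10 or more Ngp UMIs and to 0.46 with classes from Leiden clusters, and the ratio of Ngp itself went from -7.92 by the marker rule to -0.32 with those classes and that of Lcn2 from -0.80 to 0.40, so no direction was read for the group. Retnlg, a secreted neutrophil protein, had 954 UMIs in 45 cells and 19 in 8 cells (-4.55, -5.29 to -3.90), with 57.9% of the latter in 1 cell and a ratio of -1.35 without the antibody, and Ly6g, the surface antigen by which mouse neutrophils are stained, 47 UMIs in 15 cells and 0 in 277 cells. Tumor cells, taken as background, had 0 and 4 cells with a UMI of Retnlg and 0 and 1 with one of Ly6g. Other genes of the 6 lowest were Dhx40 (632 to 118 CPM, -2.42), Asprv1 (431 to 102 CPM, -2.08), Wfdc21 (417 to 137 CPM, -1.60) and Mirt1 (333 to 116 CPM, -1.53). S100a8, an alarmin, was at 10131 and 6170 CPM (-0.72). Retnlg, S100a8, Csf3r, Cxcr2 and Mmp9 are on the marker list by which neutrophils were called.

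The 6 highest neutrophil genes were Cd74, Rgs1, Scimp, Cks2, Ifi27l2a and Nudt4. Ifi27l2a, an interferon-induced gene, went from 864 to 1762 CPM (1.03, 0.87 to 1.18). It was short of the fold under TMM (0.88) and with classes from Leiden clusters (0.96). Scimp, an adaptor of class II signaling, went from 257 to 589 CPM (1.19). Cd74 rose from 245 to 643 CPM (1.39), but 1 cell held 35.1% of its UMIs in the combination, its ratio was 0.46 with classes from Leiden clusters, and its ratio without the antibody was -0.29. Of 26 type I interferon response genes 0 rose and 1 fell, Oasl1 (257 to 124 CPM), with a median of 0.03 (0.48 without the antibody). Irf7 was at 280 and 449 CPM (0.68). MHC class I genes had a median of 0.39 and 0 of 11 called, with H2-D1 at 2338 and 3273 CPM (0.49). Markers of other classes in neutrophils summed to 843 and 855 CPM for macrophages (10 of 10 seen in both), 100 and 121 CPM for dendritic cells (6 and 6 of 10), 7.54 and 51.1 CPM for plasmacytoid dendritic cells (2 and 3 of 5) and 15.1 and 26.9 CPM for B cells (3 and 2 of 8). These classes express Cd74 and class II genes, and their part in the values of those genes was not tested.

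T and NK cells were too few for most genes, since 785 reached 100 UMIs. Of these, 61 were called (7.77%), 40 higher (5.1%) and 21 lower (2.68%). Il17a was higher in the cells of the combination and Nkg7, a cytotoxic gene, lower, whereas values of regulatory T cell genes depended on how cells were called. Il17a, the cytokine that acts on epithelium and raises neutrophil growth factors, had 37 UMIs in 4 of 92 cells with anti-PD-1 and 404 UMIs in 24 of 101 cells with the combination, 149 and 1570 CPM (3.40, 2.91 to 3.93). With classes from Leiden clusters the log2 ratio of Il17a was 1.70, still past the fold but far smaller. The ratio without the antibody was 2.14. In macrophages and monocytes, which lack the gene and were deeper (medians of 5551 and 5853 UMIs against 2157.5 and 2136), 0.543% and 0.467% of cells had a UMI. Trdc, the constant region of the delta chain of gamma delta T cells, was seen in 6 and 16 cells.

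Of 4 cytotoxic effector genes measured 3 fell (median -1.63), of which Nkg7 and Gzma are NK markers of the class rule. Nkg7, a granule protein of NK and cytotoxic T cells, stood at 732 and 288 CPM (-1.35, -1.76 to -0.95), in 35 and 28 cells. Gzmb had 106 UMIs in 12 cells and 29 in 8 cells, and Gzma had 124 and 29 UMIs, of which 112 and 29 were in 1 cell each. A single cell of either library also held 60.4% and 58.6% of the Gzmb UMIs, and the ratio of Gzmb (-1.92) was -0.96 by the mean CPM per cell. Cd8a was seen in 12 of 92 and 10 of 101 cells and Cd4 in 13 and 12. Cd8b1, the other chain of the CD8 coreceptor, was seen in 20 of 92 cells (21.7%) with anti-PD-1 and 9 of 101 (8.91%) with the combination, against 0.408% and 0.436% of macrophages and monocytes, and in 16 of 66 and 3 of 62 cells without the antibody. Of 4 regulatory T cell genes measured 2 rose (median 1.08, and 0.29 with classes from Leiden clusters): the costimulatory receptors Tnfrsf4 (129 to 412 CPM, 1.68, and 0.96 with those classes) and Tnfrsf18 (161 to 443 CPM, 1.46). Foxp3, the defining factor of regulatory T cells, was seen in 9 of 92 and 17 of 101 cells, against 0.136% and 0.0623% of macrophages and monocytes. Ctla4 was at 539 and 820 CPM (0.61), and its ratio was -0.01 with classes from Leiden clusters. Pdcd1, which encodes the antibody's target PD-1, had 20 UMIs in 8 cells and 44 UMIs in 26 cells (1.09, 0.30 to 1.93). Of 4 genes of naive and memory T cells 1 fell, Lef1, from 454 to 93.3 CPM (-2.28, -2.98 to -1.64). B cell markers in this class summed to 137 and 23.3 CPM (4 and 2 of 8 seen), and their part in the naive and memory list was not tested.

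Other genes of the T and NK class moved with these. Rgs1, a regulator of G protein signaling, went from 446 to 1477 CPM (1.73) and the NF-kB inhibitor Nfkbia from 740 to 1504 CPM (1.02, and 0.38 with classes from Leiden clusters), whereas Hmgb2 (-1.34, and -0.66 by the mean CPM per cell) and Ms4a4b (-1.26) were lower. H2-D1 was at 3366 and 5495 CPM (0.71, 0.58 to 0.83), so that its ratio was above 0 in tumor cells (2.01), macrophages and monocytes (0.79), T and NK cells and neutrophils (0.49), and in the 28 and 32 fibroblasts (1789 and 4276 CPM, 1.26, 1.10 to 1.42).

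**Figure D5:**
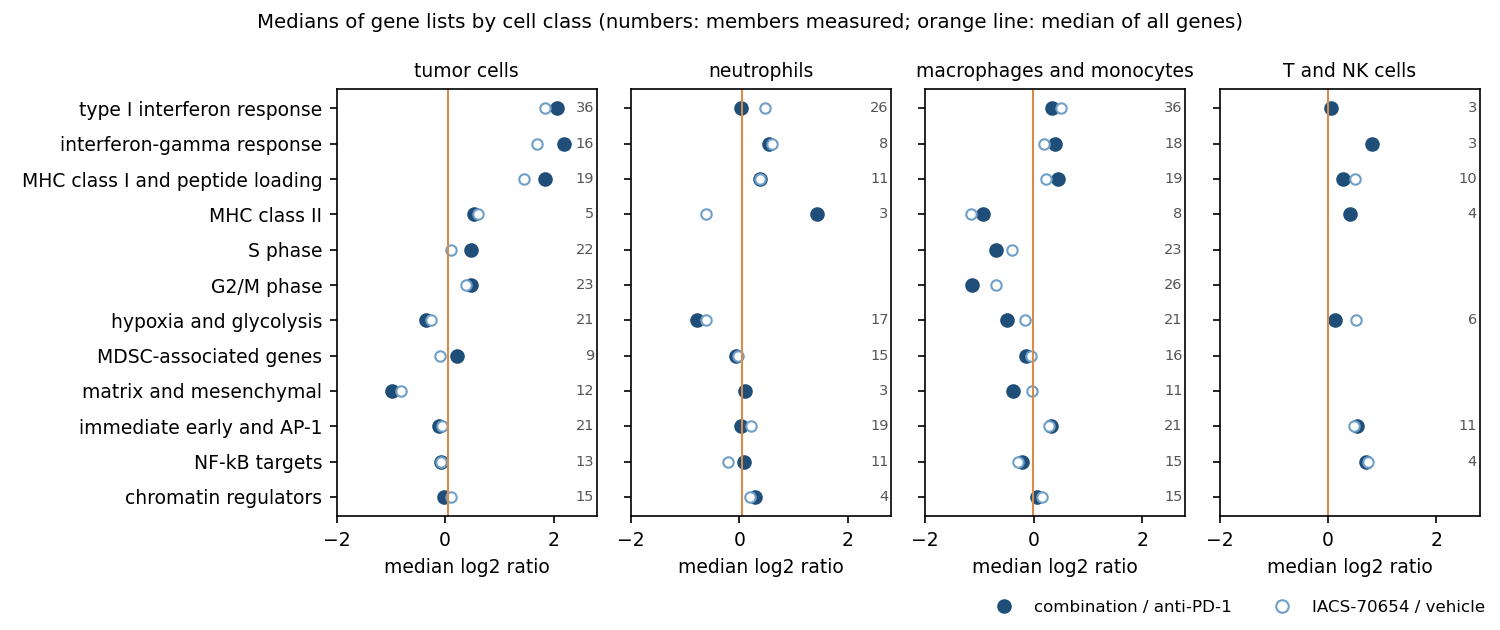
Median log2 ratio of CPM for 12 gene lists in 4 cell classes, with the number of members measured at the right of each panel and the median of all genes measured as an orange line. Filled points give combination over anti-PD-1 and open points IACS-70654 over vehicle. The type I interferon response stands at 2.06 in tumor cells and 0.33 in macrophages and monocytes, and G2/M genes at -1.14 in macrophages and monocytes. Lists with fewer than 3 members measured are not drawn.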

How the data were processed

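Viable cells of 2208L tumors were profiled as 10x Genomics 3′ libraries with CellPlex sample tags. Per the labels and the methods of the study, the authors counted UMIs with Cell Ranger on mm10 and filtered, integrated and clustered the cells with Seurat. The matrix headers of the tumor libraries name Cell Ranger 7.1.0. The deposited files hold raw UMI counts per gene and barcode, 1 matrix per library, without cell type names, so all class names were rebuilt here and may differ from those of the study.

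Cells between 200 and 6000 genes (neither limit included) with no more than 10% mt- UMIs were kept. Each cell took the class of which it showed the largest share of markers, with at least 3 markers seen. Scrublet marked 0.292% of the anti-PD-1 cells and 0% of the combination cells, below the 0.5% at which the caller is taken to work, so cells with 3 or more markers of another class at 20% or more of the UMIs of the first were left out as mixed. UMIs were summed per class and library and scaled to CPM. The log2 ratio of combination over anti-PD-1 was given for genes with at least 100 UMIs in both libraries together, with an exact conditional binomial interval, and a call is a ratio of at least 1 in size. A gene can reach this minimum through 1 library alone, and more easily where the class has more UMIs. The functions were tested on simulated data before use. Cells were thinned at random to 2000 UMIs for shares of cells and UMIs per cell. The named genes are the 6 highest and 6 lowest per class at 300 or more UMIs (ribosomal, mitochondrial, hemoglobin, Gm- and Rik-named genes left out), the most abundant and most changed members of each list described, the defining genes of a class and genes named by the study. The members and the 31 gene lists were chosen with earlier results of these data known. Genes singled out beyond that rule, such as Retnla, Ly6g, Pdcd1 and Trdc, were chosen after their values were seen. A few genes are not reported here. The alternatives were TMM scaling, other UMI minima and fold, classes from Leiden clusters (2000 variable genes, 30 principal components, 20 neighbors, resolution 1), other denominators and other cell filters, and those chosen after seeing the data were the sets without cells rich in Krt14 or Ngp and the denominator without neutrophils. Analyses used Python 3.11.15 with numpy 2.4.6, scipy 1.17.1, pandas 2.3.3, scanpy 1.11.5 and leidenalg 0.10.2.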

Additional observations from a re-analysis of the deposited data

Results flagged for a closer look

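Of 1110 combinations of gene and class compared between the pair with the antibody and the pair without it, 10 had log2 ratios of opposite sign, both at least 0.5 in size and both with intervals off 0. With 1 library per condition the difference between the pairs was not tested, and intervals cover counting error only.

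In tumor cells Ccl5 had a log2 ratio of 2.01 for the combination over anti-PD-1 and -0.57 for IACS-70654 over vehicle, and Ube2c, a ubiquitin-conjugating enzyme of mitosis, had 0.87 and -0.71. A single cell of the combination held 28.6% of the Ccl5 UMIs. In macrophages and monocytes the antiviral genes Rsad2 and Cmpk2 had -0.83 and -0.71 with the antibody and 0.82 and 0.57 without it, whereas Cldn3, a tight junction gene of epithelium, had 0.61 and -0.53. A single cell of the anti-PD-1 library held 11.6% of the Rsad2 UMIs of that class.

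In neutrophils the class II genes H2-Aa and H2-Ab1 had 1.43 and 1.56 with the antibody and -0.61 and -0.89 without it, and the median over the 3 class II genes measured there was 0.19 with classes from Leiden clusters. Egr3, an immediate early gene, had -0.96 and 0.69, and Tnfaip3, an inhibitor of NF-kB, 0.501 and -0.57. In T and NK cells Gzma had -2.15 and 1.81, with 112 of 124 UMIs in 1 cell of the anti-PD-1 library.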

How the results depend on the processing

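No paired analysis was possible because each condition has 1 library, and for the same reason no library could be left out. Of 198 alternative values of class shares, counts and list medians 58 moved, that is left the counting interval of the reported share, differed by 0.2 or more (log2) from the median or by over 1.5 times from the count, and 7 changed sign. The causes were not tested unless the setting itself shows them. Values inside those bounds can still differ, as log2 ratios of shares show. The ratio for interferon-response macrophages went from 0.0014 to 0.46 without thinning and that for T and NK cells from -1.17 to -0.79 in Leiden clusters. The ratio for cycling tumor cells went from 1.15 to 0.47 with 1 gene needed. Class shares (log2 ratio) came to -2.50 for neutrophils in cells of at least 1000 UMIs, to 0.48 for macrophages and monocytes and -0.40 for tumor cells without neutrophils in the denominator, and to -3.19 for B cells in Leiden clusters. With every cell weighted equally, marker UMIs gave 0.42 for tumor epithelium, -0.51 for monocytes, -2.21 for B cells and -1.02 for fibroblasts.

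Counts of higher and lower genes followed the minimum and the fold by construction. At 30 or more UMIs they were 713 and 429 in tumor cells, 161 and 239 in neutrophils, 311 and 431 in macrophages and monocytes and 164 and 136 in T and NK cells. At 300 or more UMIs they were 211 and 143, 5 and 16, 34 and 100, and 5 and 2 in the same order. With no minimum they were 3923 and 2477, 2619 and 3518, 3905 and 2162, and 2585 and 2744, and at a log2 ratio of 0.5 they were 1277 and 877, 242 and 244, 635 and 809, and 131 and 73. TMM scaling gave 15 and 93 in neutrophils against 23 and 58, and Leiden clusters 109 and 56 in T and NK cells against 40 and 21.

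Leiden clusters gave list medians of 1.81 for the type I interferon response and 0.64 for neutrophil chemoattractants in tumor cells, 0.19 for class II genes in neutrophils, and -1.18, 0.29 and -1.01 for cytotoxic, regulatory and naive genes in T and NK cells. At 30 or more UMIs the medians were 0.72 for chemoattractants in tumor cells, -0.80 for granule and -0.23 for trafficking genes (0.01 as reported, -0.14 with TMM and -0.15 in Leiden clusters) in neutrophils, and -0.79, 0.87 and -1.07 for cytotoxic, regulatory and naive genes. Without cells rich in Krt14 keratins came to 1.39 and chemoattractants to 0.71. Neutrophil granule genes changed sign, to 0.46 in Leiden clusters and 0.79 without cells rich in Ngp, the share of cycling tumor cells had a log2 ratio of -0.13 without thinning, and that of all tumor cells 0.021 thinned to 1000 UMIs. Of 371 values for named genes 27 crossed the fold and 6 changed sign: Il1b (-0.077 with TMM, -0.036 in Leiden clusters) and Cxcr2 (-0.14 and -0.15) in neutrophils, Lcn2 in neutrophils (0.40) and Ctla4 in T and NK cells (-0.010), both in Leiden clusters. Krt6b, with 0 UMIs in 1 library, was set at 3 UMIs, and its mean CPM per cell gave no value.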

Other observations

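The fibroblasts, 28 cells with anti-PD-1 and 32 with the combination, were too few for a list of genes. Sums of single genes are given as a description only, since a single cell can carry much of such a sum. Ccl2, a ligand of the monocyte receptor CCR2, stood at 647 and 1779 CPM (log2 ratio 1.46), Cxcl12 at 133 and 406 CPM (1.61), and Cxcl1, which draws neutrophils, at 611 and 1199 CPM (0.97). The sum of Cxcl12 was thus higher in these few fibroblasts and lower in the tumor cells of the same library. Cxcl9 had 8 UMIs in 3 cells and 107 in 10 cells. Ldha, an enzyme of glycolysis, was at 988 and 424 CPM (-1.22).

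Of 21 immediate early genes measured in macrophages and monocytes 2 were higher, Egr3 (3.40) and Egr2 (1.58), and 0 lower. Of all genes of the class 1.01% were higher and 2.33% lower. Intervals of the 21 lay above 0 for 15 and below 0 for 3, against 15.3% and 20% of all genes, and the median was 0.32. In tumor cells 14 genes of epithelial junctions were measured, with a median of 0.24. The desmosome genes Pkp1 (1.58) and Dsc2 (1.13) and the claudin gene Cldn4 (1.35) were higher and 0 lower, against 3.75% and 2.63% of all genes there. For 9 of the 14 the interval lay above 0 and for 3 below, against 28.6% and 21.3% of all genes.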
